A study of Mus musculus with 24 samples.

Results

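Macrophages grown from the bone marrow of mice lacking both liver X receptors were compared with LXR-positive macrophages after stimulation with KLA, across all genes measured. The comparison used the 6 libraries that the labels give to KLA, 3 of each genotype, out of 24 in the series, and the 6 vehicle libraries of the same mice entered the fit beside them. The series holds RNA sequencing of macrophages from 6 mice, 3 of each genotype, each mouse supplying cells for vehicle, KLA, GW3965 (a synthetic LXR agonist) and AcLDL (acetylated low-density lipoprotein, which loads macrophages with cholesterol). The question addressed was how the genotypes differed in the activated state, not how far each had moved from its own vehicle level.

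The groups were, first, cells labelled LXRalpha + LXRbeta double knockout (DKO) given KLA, then LXR-positive cells given KLA, then DKO and LXR-positive cells given vehicle, with 3 libraries in each. All mice were labelled C57BL/6J and were 8 to 12 weeks old. Marrow cells of both genotypes were cultured in DMEM with 20% serum and 30% L929-conditioned medium, which was changed after 4 days, and KLA at 100 ng/ml or vehicle was given on day 5 for 17 hours. The sources used here do not say which exons the knockout alleles lack. Libraries were made from individual mice, and libraries of 1 genotype that carry the same number came from the same mouse.

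LXRα and LXRβ, encoded by Nr1h3 and Nr1h2, are nuclear receptors that bind oxidized derivatives of cholesterol. They pair with retinoid X receptors and activate genes of cholesterol export and of fatty acid synthesis and desaturation, and in macrophages they can also restrain inflammatory genes. Cholesterol synthesis and uptake are driven by another factor, SREBP2, which is processed when membrane cholesterol is low. KLA, Kdo2-lipid A, is the part of bacterial lipopolysaccharide that activates the receptor TLR4, which signals to NF-kB and to type I interferon.

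Values are the authors' normalized counts, that is, reads of a gene divided by 1 size factor per library, and cannot be compared between genes of different length. DKO libraries with KLA held 14084070 to 21644900 reads and detected 23777 to 24211 genes, and LXR-positive libraries with KLA held 8856391 to 10179626 reads and detected 20639 to 21594 genes. Depth therefore moved with genotype. Of the variance among the 6 KLA libraries, 39.8% lay on a first principal component that placed the DKO libraries on one side and the LXR-positive libraries on the other, and 21.5% lay on a second component on which LXR-positive library 2 stood apart from the other LXR-positive libraries. Replicates correlated across genes at r of 0.968 to 0.972 among DKO and 0.948 to 0.959 among LXR-positive libraries. The macrophage markers Adgre1, Csf1r, Cd68, Itgam, Mertk, Fcgr1, Lyz2 and Cd14 all passed the filter on low values and none differed at the threshold. In a wider list of 22 macrophage identity genes 1, Irf8, was called, 7 had an unadjusted p under 0.05, and the summed level did not overlap, at 385004 to 432480 normalized counts in DKO cells and 468453 to 548434 in LXR-positive cells with KLA. In bulk RNA, fewer cells of a type and less RNA per cell cannot be told apart.

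The targeted genes came first. Nr1h2 (chr7:44549616-44553951 in GRCm38, minus strand) had 331, 299.6 and 395 normalized counts in DKO cells, against 821, 449 and 666 in LXR-positive cells (log2 difference -0.88 ± 0.21 (SE), adjusted p = 0.032). The groups did not overlap with KLA, nor with vehicle, GW3965 or AcLDL, but the call ended without any 1 of the DKO KLA libraries or LXR-positive KLA library 1 or 3, with an adjusted p of up to 0.117. Nr1h3 (chr2:91184061-91202834, minus strand) had 751, 608 and 658 normalized counts in DKO cells, against 870.2, 1267 and 546 in LXR-positive cells, and the groups overlapped (log2 difference -0.33 ± 0.26 (SE), adjusted p = 0.47). Reads of both genes remained in DKO cells. Because the deleted exons are not given, totals over a whole gene do not check the deletion.

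Of 15957 genes tested, 1097 (6.87%) were called, meaning a Benjamini-Hochberg adjusted p under 0.05 in limma's fit to log2(normalized count + 1). In DKO cells 480 genes were higher (3.01%) and 617 were lower (3.87%). Of the 480 genes called higher, 301 differed by a log2 of at least 1, whereas 69 of the 617 called lower reached a log2 of -1. Protein-coding genes made up 296 of the higher and 588 of the lower calls. LXR-positive libraries were shallower, and the part of depth and of gene class in this gap of size was not tested. Among the called genes, 480 of the higher and 616 of the lower had DKO and LXR-positive libraries that did not overlap. Over all tested genes the groups did not overlap in these directions in 12.9% and 15.0%. Overlap was read from the same libraries that gave the calls, so it adds no support to them. The median difference over all tested genes was 0.01. With reads of every library thinned to the shallowest, 749 genes were called, 461 higher and 288 lower (61.5% higher, against 43.8% at full depth). The share of higher calls was also 53.0% with quantile scaling, 54.0% with only the 6 KLA libraries and 37.9% with edgeR, so the balance of directions was not fixed.

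The number of calls rested on the libraries entered. It was 128 without DKO library 2, 335 without DKO library 3, 368 without DKO library 1, 486 without LXR-positive library 3 and 722 without LXR-positive library 2. Of 87 called genes named by rule or after their values were seen, 24 kept their call without DKO library 2 and 65 without LXR-positive library 2, the one that stood apart. Fdps, Cyp51, Idi1, Lss, Hmgcs1, Abcg1, Mylip, Acsl3, Utp14b, Plxdc2, Cat, Api5, Mid1, Tspan18 and Fcgrt kept theirs under all 25 alternatives tried. Jchain did too, but it passed the filter on low values through the DKO libraries alone, so its kept call adds no support.

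**Figure D1:**
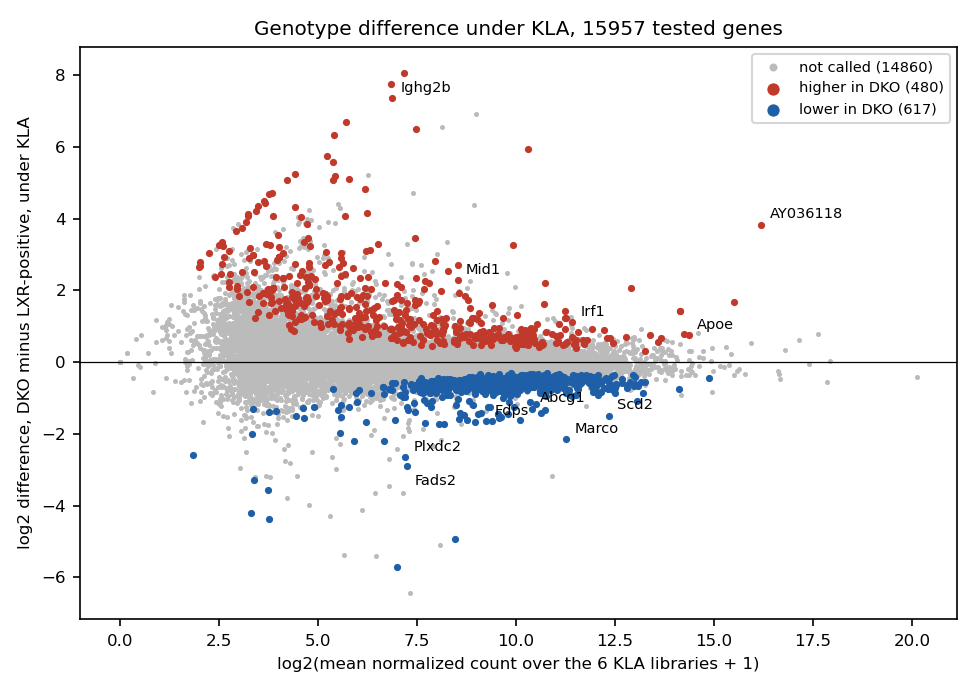
Genotype difference of each of the 15957 tested genes under KLA (vertical axis, log2, DKO minus LXR-positive) against its mean level over the 6 KLA libraries (horizontal axis, log2 normalized count + 1). Red points are the 480 genes called higher in DKO cells and blue points the 617 called lower. Of the higher genes 301 differ by a log2 of at least 1, and of the lower genes 69 reach -1.

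Genes of cholesterol synthesis were the most uniformly lower group. Of 27 genes in the list of cholesterol synthesis and uptake, 26 passed the filter. In DKO cells 13 were lower and none was higher, against 3.87% and 3.01% over all tested genes. The median difference was -0.88, against 0.01 over all tested genes, and 25 of the 26 were below 0. Among the lower genes were Hmgcs1 (3-hydroxy-3-methylglutaryl-CoA synthase), Idi1 and Fdps (isoprenoid steps), Fdft1 and Sqle (squalene synthase and epoxidase), Lss (lanosterol synthase), and Cyp51, Msmo1, Hsd17b7 and Sc5d (later sterol steps). Insig1, which retains the SREBP complex in the endoplasmic reticulum, and Stard4, a sterol carrier, were lower too. Sqle, Msmo1, Hsd17b7, Sc5d, Insig1 and Stard4 lie outside the rule for named genes and were added after their values were seen.

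Fdps, which makes farnesyl diphosphate, had 256, 276 and 329 normalized counts in DKO cells, against 1014, 624 and 1151 in LXR-positive cells (log2 difference -1.65 ± 0.19 (SE), adjusted p = 0.0014). Every DKO library lay below every LXR-positive library, 3.15-fold apart on the fitted scale. Cyp51, lanosterol demethylase, had 425, 597 and 577 in DKO cells, against 1802, 1081 and 2119 in LXR-positive cells (-1.60 ± 0.24, adjusted p = 0.0057). It shares 166 exon bases with a gene on the opposite strand, and whether the counting used strand is not stated. Idi1, which isomerizes isopentenyl diphosphate, had 312, 428 and 435 in DKO cells, against 1225, 797 and 1475 in LXR-positive cells (-1.54 ± 0.22, adjusted p = 0.0054), and Hmgcs1 had 719, 913 and 1022, against 2244, 1442 and 2339 (-1.16 ± 0.19, adjusted p = 0.0083). In each of these genes LXR-positive library 2 was the lowest of its group and still lay above all DKO libraries.

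For Lss the values were 277, 321 and 303 in DKO cells, against 871, 645 and 912 in LXR-positive cells (-1.41 ± 0.21, adjusted p = 0.0063). Fdft1, with 774 exon bases shared with the opposite strand, had 330.0, 371 and 425, against 1125, 579.5 and 1078 (-1.25 ± 0.22, adjusted p = 0.012). Differences of the other 7 ran from -1.44 for Sqle to -0.88 for Stard4. Of the genes that did not pass, Srebf2, which encodes SREBP2, had 963, 1151 and 1112 in DKO cells, against 2109.6, 1202 and 2057 in LXR-positive cells without overlap (-0.69 ± 0.21, adjusted p = 0.063). Without DKO library 2 the list held 7 lower genes, and without LXR-positive library 2 it held 20, with no higher gene in either case.

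**Figure D2:**
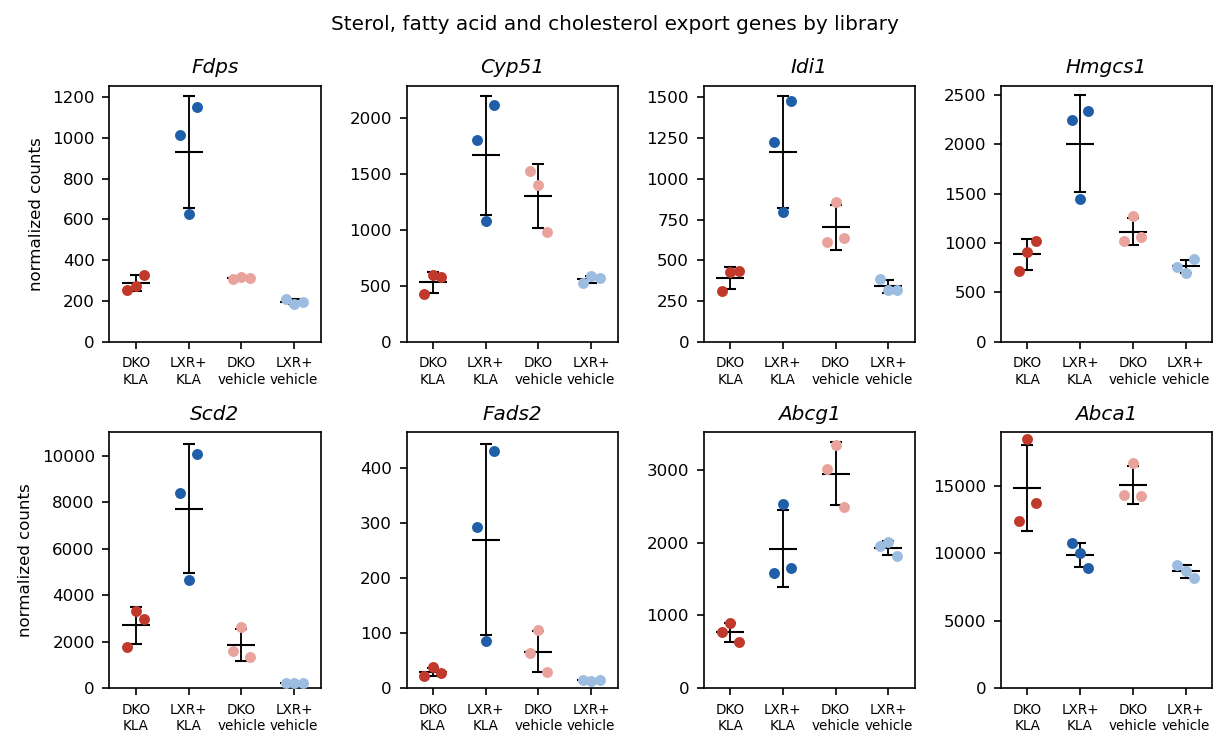
Normalized counts per library (points) of 8 genes in DKO and LXR-positive cells with KLA and with vehicle; bars are the mean and SD of 3 mice. In the KLA pairs the DKO points of Fdps, Cyp51, Idi1, Hmgcs1, Scd2, Fads2 and Abcg1 lie below the LXR-positive points, whereas those of Abca1 lie above them; with vehicle the DKO points of all 8 genes lie above.

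Promoter sequences are shown for Hmgcs1 and Idi1 because both were lower in DKO cells and differ in whether the window before the start holds the sterol regulatory element as spelled here, TCACNCCAC, searched on both strands. Of all 32851 RefSeq windows, each from 250 bases before to 50 bases after a gene's start, 408 (1.24%) held these letters. Of the 13 lower cholesterol genes, 8 had a window, and 1 of them, Hmgcs1, held a match, at position -137 from the start. The 250 bases before each start, from RefSeq on GRCm38.p6, plus strand, are given 5′ to 3′ with the match in capitals, for Hmgcs1 at chr13:119690101-119690350 and for Idi1 at chr13:8885356-8885605.
Hmgcs1: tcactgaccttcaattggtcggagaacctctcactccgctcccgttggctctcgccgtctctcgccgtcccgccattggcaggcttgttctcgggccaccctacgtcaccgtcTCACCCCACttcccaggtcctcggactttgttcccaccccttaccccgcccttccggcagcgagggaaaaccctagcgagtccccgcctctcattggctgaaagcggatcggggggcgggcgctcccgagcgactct
Idi1: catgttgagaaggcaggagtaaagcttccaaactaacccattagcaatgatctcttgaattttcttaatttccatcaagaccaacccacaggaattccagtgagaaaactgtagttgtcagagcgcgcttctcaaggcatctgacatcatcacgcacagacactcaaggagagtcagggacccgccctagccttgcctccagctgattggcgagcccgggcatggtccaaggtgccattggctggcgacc
The Idi1 window has no capitals since these letters are not in it.

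Fatty acid synthesis and desaturation genes were lower as well. Of 21 in the list, 20 passed the filter, with a median difference of -0.72. In DKO cells 8 were lower and none was higher, against 3.87% and 3.01% over all tested genes. Fads2, the delta-6 desaturase of polyunsaturated fatty acid synthesis, had 22.8, 37.9 and 27.5 normalized counts in DKO cells, against 292, 86.9 and 431 in LXR-positive cells (log2 difference -2.91 ± 0.54 (SE), adjusted p = 0.014). All DKO libraries were below 40 normalized counts, and the LXR-positive libraries spread widely above them. Scd2, a stearoyl-CoA desaturase, had 1793, 3331 and 2988 in DKO cells, against 8403, 4657 and 10062 in LXR-positive cells (-1.49 ± 0.31, adjusted p = 0.02). Its near relative Scd1 had 98.1, 88.8 and 31.2, against 288, 74.9 and 624, and the groups overlapped (-1.86 ± 0.76, adjusted p = 0.16). Reads of these relatives can be hard to assign.

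Fasn, fatty acid synthase, had 412, 323 and 362 in DKO cells, against 985, 746 and 1708 in LXR-positive cells (-1.57 ± 0.31, adjusted p = 0.017). Acaca, acetyl-CoA carboxylase, which supplies its substrate, had 803, 729 and 873, against 1545, 1135 and 1486 (-0.78 ± 0.14, adjusted p = 0.012). Acsl3, which activates long-chain fatty acids, had 108, 132 and 122, against 453, 308 and 449 (-1.71 ± 0.24, adjusted p = 0.0054). Its span (chr1:78657825-78707743) contains Utp14b (chr1:78658038-78671512), a ribosome assembly factor on the same strand, with 112, 123 and 164 in DKO cells, against 454, 347 and 518 in LXR-positive cells (-1.72 ± 0.19, adjusted p = 0.00089), so the split of reads between them is uncertain. The elongases Elovl5 (-0.74 ± 0.13, adjusted p = 0.013) and Elovl6 (-0.98 ± 0.27, adjusted p = 0.048) and the desaturase Fads1 (-0.70 ± 0.16, adjusted p = 0.027) were the other called genes. Without DKO library 2 the list held 2 lower genes, and without LXR-positive library 2 it held 10.

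Genes listed as LXR targets went in both directions. Of 28 listed genes, 26 passed the filter, with a median of -0.39. In DKO cells 7 were lower and 2 were higher, against 3.87% and 3.01% over all tested genes. Without DKO library 2 the list held 2 lower and 0 higher genes, and with only the 6 KLA libraries 4 and 0. Mylip, a ubiquitin ligase that limits lipoprotein uptake, had 219, 227 and 253 normalized counts in DKO cells, against 962, 560.1 and 767 in LXR-positive cells (log2 difference -1.67 ± 0.17 (SE), adjusted p = 0.0007). Abcg1, a transporter that passes cholesterol on to high-density lipoproteins, had 772, 902 and 637, against 1584, 2525 and 1645 (-1.30 ± 0.18, adjusted p = 0.0054). In both genes the DKO libraries lay below all LXR-positive libraries, and those of Mylip were tightly grouped. Lpcat3 (-0.81 ± 0.20, adjusted p = 0.032), a phospholipid-remodelling enzyme, and Arl4c (-0.52 ± 0.13, adjusted p = 0.034), a small GTPase of cholesterol transport, were also lower, beside Scd2, Fasn and Acaca. Srebf1, which encodes the fatty acid regulator SREBP1, did not pass (395, 604 and 528 in DKO cells, against 809, 728 and 647 in LXR-positive cells; -0.53 ± 0.19, adjusted p = 0.1).

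The higher targets were the cholesterol exporter Abca1 and the lipoprotein component Apoe, both named after their values were seen. Abca1 had 12381, 18449.6 and 13721 normalized counts in DKO cells, against 10737, 10000.4 and 8904 in LXR-positive cells (log2 difference 0.57 ± 0.14 (SE), adjusted p = 0.038), and the groups did not overlap. Apoe had 25583, 21241 and 32684, against 14491, 13566 and 19031 (0.75 ± 0.20, adjusted p = 0.044), also without overlap. Of 25 alternatives, 10 ended the call of Abca1, with an adjusted p of up to 0.119 where 1 library was left out, and 11 ended that of Apoe, with up to 0.139. The libraries that ended a call by their absence were, for Abca1, DKO 2 and 3 and LXR-positive 2 and 3 with KLA, and for Apoe, DKO 1, 2 and 3 and LXR-positive 1 and 2 with KLA, besides vehicle libraries for both.

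Lipid uptake and storage genes held 1 higher and 1 lower call among 23 tested. These counts are near the shares over all tested genes, 3.01% higher and 3.87% lower, so they mark no result for the list. Marco, a scavenger receptor for bacteria and modified lipoproteins, had 651, 798 and 1295 normalized counts in DKO cells, against 3648, 3071 and 5267 in LXR-positive cells, 4.44-fold lower on the fitted scale (log2 difference -2.15 ± 0.56 (SE), adjusted p = 0.043). The groups did not overlap, and its call ended without any 1 of the 6 KLA libraries (adjusted p of 0.0502 to 0.126). Lipe, hormone-sensitive lipase, had 483, 438 and 485, against 280.5, 214 and 211 (1.00 ± 0.19, adjusted p = 0.014), and shares 918 exon bases with the opposite strand. Cd36 (0.65) and Msr1 (-0.29), scavenger receptors, and Plin2 (-0.45), the lipid droplet coat protein, did not pass.

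Set beside vehicle, the sterol genes stood in the opposite order. With vehicle 42 of 15957 genes were called (0.263%), 32 higher and 10 lower in DKO cells, and 35 of them were also called under KLA, 34 in the same direction. The exception was Scd2, which with vehicle had 1618, 2646 and 1344 normalized counts in DKO cells, against 238, 245 and 232 in LXR-positive cells (log2 difference 2.91, adjusted p = 0.0012). In the cholesterol list the median difference with vehicle was 0.65, with 23 of 26 genes above 0 and none called. Idi1 had 610.5, 859 and 637 in DKO cells, against 385, 319 and 315 in LXR-positive cells with vehicle, where all DKO libraries were the higher ones.

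The difference between these differences, under KLA minus with vehicle, was below 0 in 26 of 26 cholesterol genes, with a median of -1.69. Over all genes, 11 were called in limma's test of this contrast (0.0689%), all negative, and 10 of them were among the genes called under KLA. At an unadjusted p under 0.05 there were 855 genes. Scd2 (-4.39 ± 0.44, adjusted p = 0.003), Fdps (-2.32 ± 0.27, adjusted p = 0.0089), Cyp51 (-2.80 ± 0.33, adjusted p = 0.0089) and Idi1 (-2.58 ± 0.31, adjusted p = 0.0089) kept this call under all 24 alternatives tried for it. Abcg1 (-1.90 ± 0.26, adjusted p = 0.022) and Utp14b (-2.04 ± 0.26, adjusted p = 0.014) each lost it in 7 of the 24. With vehicle, Abcg1 had 3007, 3341 and 2489 in DKO cells, against 1959, 2005 and 1823 in LXR-positive cells. With the replicate number as a block 6 genes were called, and the count ran from 5 to 30 with 1 library left out, the most without LXR-positive KLA library 2. Both differences come from the same 6 mice.

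**Figure D3:**
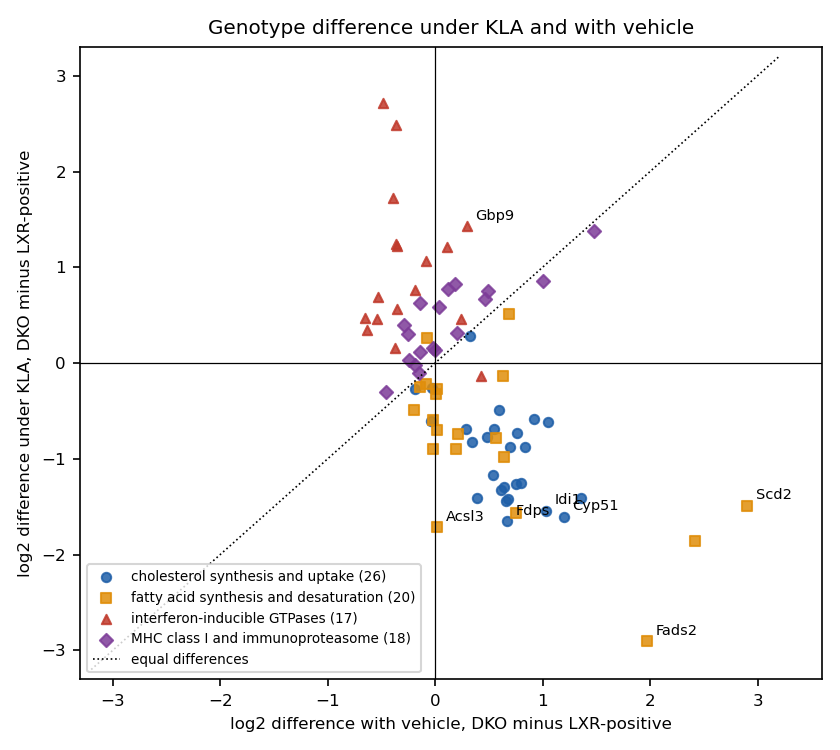
Genotype difference under KLA (vertical axis) against that with vehicle (horizontal axis), both log2 and DKO minus LXR-positive, for the tested members of 4 gene lists; the dotted line marks equal differences. Cholesterol and fatty acid genes lie mostly to the lower right, with medians of -0.88 and -0.72 under KLA and of 0.65 and 0.11 with vehicle, and the GTPases lie mostly to the upper left, with medians of 0.76 and -0.36.

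Among interferon-inducible genes, the calls fell on 5 genes of MHC class I and the immunoproteasome, on 3 GTPases and on Irf1, and all were higher in DKO cells. In the list of MHC class I and the immunoproteasome, 18 of 18 genes passed the filter, with a median of 0.36. In DKO cells 5 were higher and none was lower, against 3.01% and 3.87% over all tested genes. H2-K1, a classical class I heavy chain, had 15102, 16029.8 and 16863 normalized counts in DKO cells, against 10282, 10912 and 9097 in LXR-positive cells (log2 difference 0.67 ± 0.12 (SE), adjusted p = 0.012). H2-D1, the other classical chain, had 23436, 24357 and 24907, against 18915, 11785 and 12828 (0.77 ± 0.16, adjusted p = 0.021). Both genes separated the groups completely, and every such gene has close relatives among which reads can be hard to divide. H2-T23, a non-classical chain that presents leader peptides to natural killer cells, had 3418, 4002 and 4208, against 2284, 1965 and 2298 (0.83 ± 0.16, adjusted p = 0.016). H2-Q4 (0.75 ± 0.15, adjusted p = 0.017) and the immunoproteasome subunit Psmb9 (0.58 ± 0.14, adjusted p = 0.032) were the others, and H2-Q4 shares 496 exon bases with the opposite strand, whereas B2m, the shared light chain, was at -0.11 ± 0.11, adjusted p = 0.6.

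Of the interferon-inducible GTPases, which act on membranes around intracellular microbes, 17 of 17 passed the filter and 3 were higher, with 16 above 0 and a median of 0.76. Among all tested genes 3.01% were called higher, and the list's share was not tested against that. Gbp9 had 4076, 3019.9 and 3367 normalized counts in DKO cells, against 1470.3, 1474 and 971 in LXR-positive cells (log2 difference 1.43 ± 0.28 (SE), adjusted p = 0.017). The lowest DKO library had more than double the highest LXR-positive one. Igtp had 2227, 1938 and 1731, against 714, 1502 and 767 (1.06 ± 0.28, adjusted p = 0.044), and Gvin1 had 14699, 12672 and 12249.7, against 5910.0, 10436 and 7594 (0.76 ± 0.20, adjusted p = 0.045), where LXR-positive library 2 came nearest to the DKO libraries. Iigp1 (2.49 ± 0.70, adjusted p = 0.052) and Gbp5 (1.22 ± 0.46, adjusted p = 0.13) did not pass. The count of higher GTPases was 0 without DKO library 1, 2 or 3 or LXR-positive library 3, and 8 without LXR-positive library 2. For class I genes it was 0 without DKO library 2 and 8 without LXR-positive library 2.

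Irf1, a transcription factor that activates class I and GTPase genes, had 4507, 3361 and 3361 normalized counts in DKO cells, against 1444, 1942 and 1764 in LXR-positive cells (log2 difference 1.12 ± 0.21 (SE), adjusted p = 0.015), and shares 135 exon bases with the opposite strand. It was the 1 called gene of 30 interferon-stimulated genes, a list with a median of 0.37 and 23 genes above 0. That count is near the 3.01% called higher over all tested genes, so it marks no result for the list. Isg15 (0.81), Ifit1 (-0.21) and Irf7 (-0.06) did not pass. Irf8, a partner of Irf1 in macrophages, had 1628, 1615 and 1841, against 1152, 1122 and 1237 (0.53 ± 0.10, adjusted p = 0.017). Cd40, a co-stimulatory receptor, had 664, 557 and 649, against 291, 280.0 and 296 (1.10 ± 0.23, adjusted p = 0.02), and was the 1 called gene of 14 in the class II and co-stimulation list. The calls of Irf1 ended without DKO library 1 or 2 (adjusted p of 0.0513 and 0.0524) and those of Cd40 without any DKO library or LXR-positive library 3 (0.0515 to 0.0651).

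**Figure D4:**
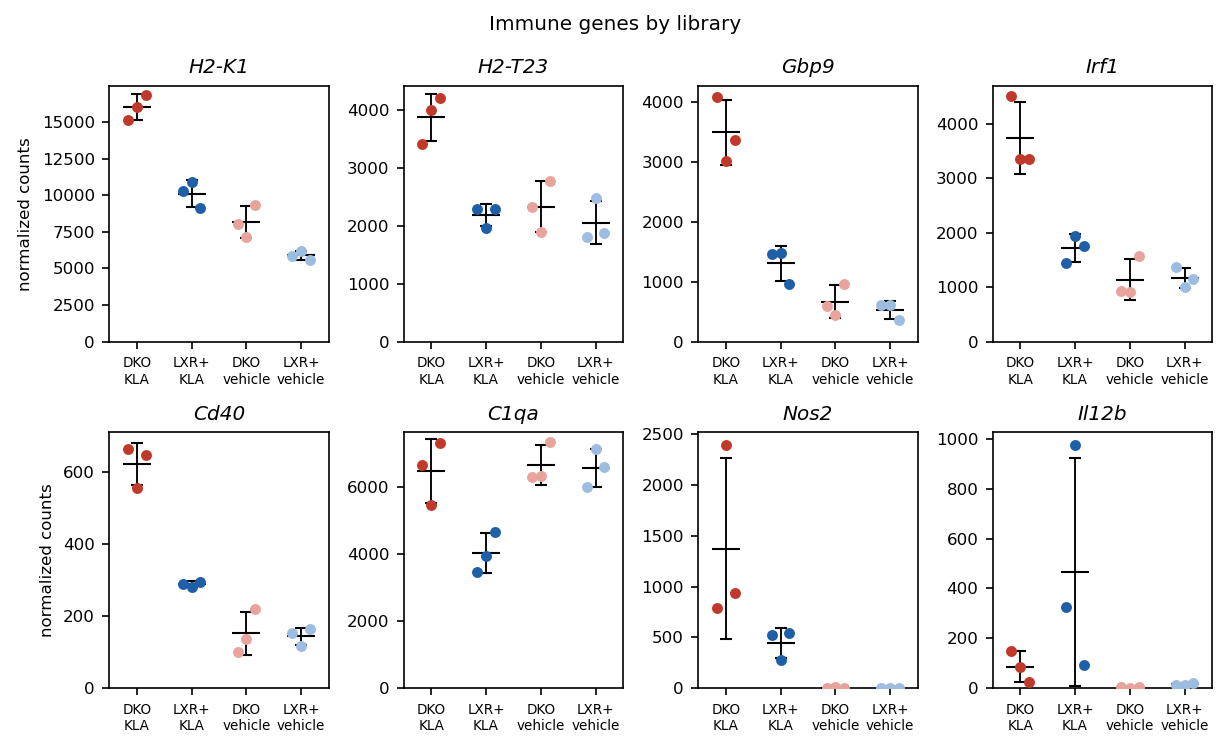
Normalized counts per library (points) of 8 immune genes in DKO and LXR-positive cells with KLA and with vehicle; bars are the mean and SD of 3 mice. H2-K1, H2-T23, Gbp9, Irf1, Cd40 and C1qa were called under KLA with no overlap of the groups, whereas Nos2 and Il12b varied widely among libraries and were not called.

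Classical inflammatory products of TLR4 held no calls. None of 19 cytokines, 22 chemokines and 23 inflammatory effectors differed at the threshold by limma, with medians of -0.21, 0.51 and -0.12. Of all tested genes 6.87% were called. At an unadjusted p under 0.05 the lists held 5, 5 and 4 genes, edgeR called 0, 0 and 1 of them, and DESeq2 called 2 in each. Tnf had 1032, 584 and 478 normalized counts in DKO cells, against 649.7, 464 and 727 in LXR-positive cells (log2 difference 0.13 ± 0.27 (SE), adjusted p = 0.81), with overlap. Il1b, interleukin-1β, had 4451, 6495 and 5977, against 12669, 5921 and 10683 (-0.74 ± 0.34, adjusted p = 0.21), and Il6 had 40.5, 53.6 and 41.6, against 84.8, 77.9 and 56.2 without overlap (-0.67 ± 0.48, adjusted p = 0.43). Il12b, the shared subunit of interleukins 12 and 23, ranged over an order of magnitude within the LXR-positive group (149, 85.1 and 24.5 in DKO cells, against 325, 976 and 94.1; -2.17 ± 0.76, adjusted p = 0.1).

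Nos2, inducible nitric oxide synthase, had 787, 2395 and 941 in DKO cells, against 521, 274 and 539 in LXR-positive cells, with every DKO library the higher (1.51 ± 0.53, adjusted p = 0.1). Cxcl10, an interferon-induced chemokine, had 1099, 1316 and 648, against 312, 632 and 288 (1.35 ± 0.45, adjusted p = 0.091), again with no overlap. Osm (-0.81 ± 0.29, adjusted p = 0.1), Ccl6 (0.75 ± 0.24, adjusted p = 0.083) and Nampt (-0.30 ± 0.09, adjusted p = 0.063) were the nearest to the threshold of the rest. Of 34 genes of TLR signalling and its feedback, Tlr4 itself was lower (1582, 1361 and 1421 in DKO cells, against 1687, 2805 and 2474 in LXR-positive cells; -0.64 ± 0.17, adjusted p = 0.041) and Atf3, a repressor induced by TLR4, was higher (1166, 1648 and 2171, against 1121, 686 and 1059; 0.79 ± 0.22, adjusted p = 0.049). Both calls ended in more than 12 of the 25 alternatives. A count of 1 each way among 34 genes is near the shares over all tested genes, 3.01% higher and 3.87% lower.

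Complement and engulfment genes were higher where they were called. In DKO cells 3 of 20 complement and Fc receptor genes and 3 of 19 efferocytosis genes were higher and none was lower, with medians of 0.39 and 0.29. These are 4 genes in all, since C1qa and C1qc are in both lists. Among all tested genes 3.01% were called higher and 3.87% lower, and neither list's share was tested against these. C1qa, a chain of the complement recognition molecule, had 6652, 5455 and 7327 normalized counts in DKO cells, against 3470.3, 3953 and 4654 in LXR-positive cells (log2 difference 0.69 ± 0.14 (SE), adjusted p = 0.018). C1qc, another of its chains, had 3993, 3757 and 4216, against 2204, 2811 and 2779 (0.63 ± 0.12, adjusted p = 0.014). For C1qa, DKO cells with KLA lay near the vehicle levels, which were 6288, 6341 and 7343 in DKO cells and 5987, 7138 and 6591 in LXR-positive cells. C1ra, the protease that C1q activates, had 338, 467 and 348, against 228, 149.8 and 203 (0.99 ± 0.19, adjusted p = 0.014). Itgb5, an integrin subunit that binds a bridging molecule on dying cells, was at 0.64 ± 0.16, adjusted p = 0.037. The complement list held 1 higher gene without DKO library 2 or 3, and the efferocytosis list held 1 without DKO library 1 or 2 and 0 without DKO library 3.

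**Figure D5:**
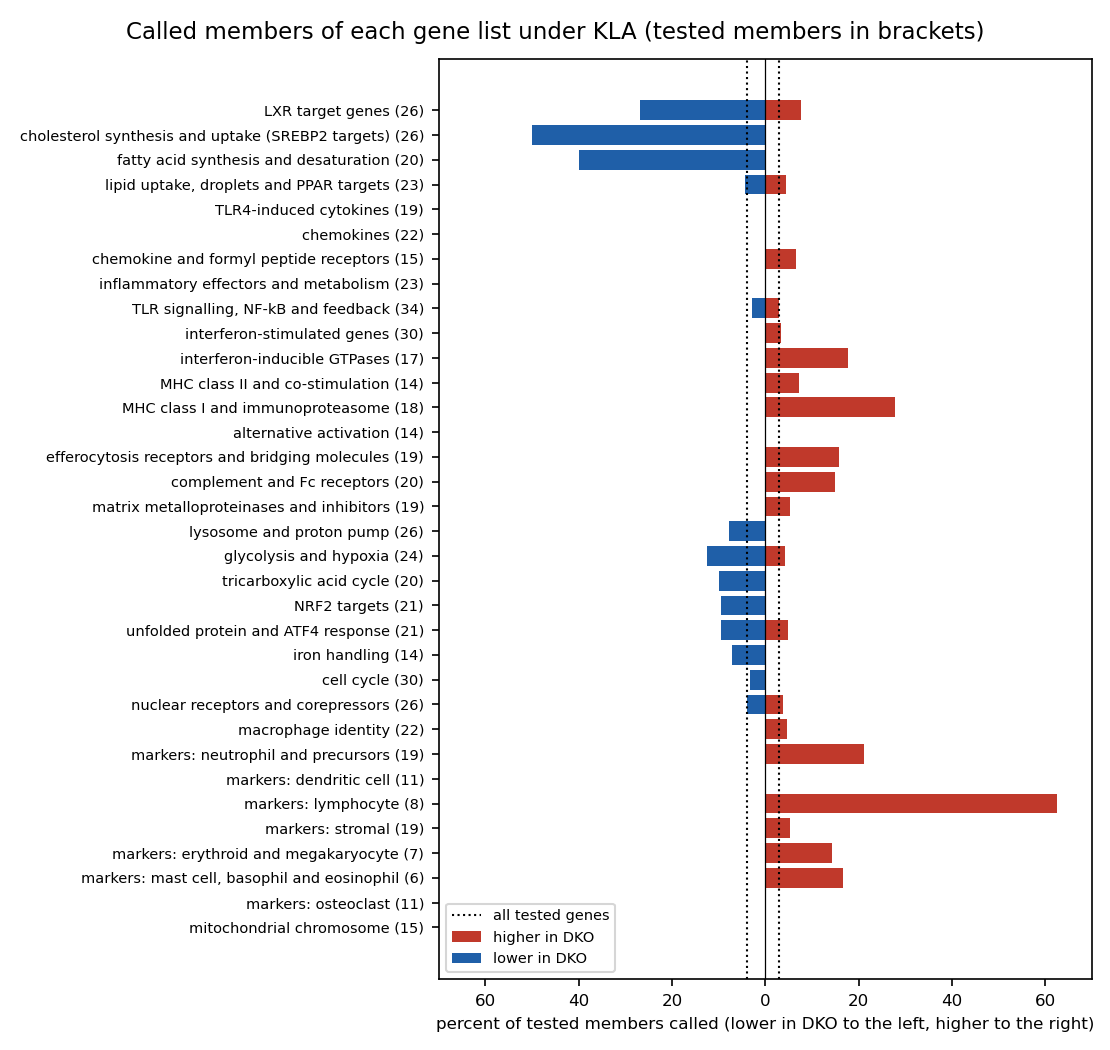
Percentage of the tested members of each of 34 gene lists called lower in DKO cells (blue, to the left) and higher (red, to the right) under KLA; numbers of tested members are in brackets, and dotted lines mark 3.87% lower and 3.01% higher among all tested genes. The longest blue bars are those of cholesterol synthesis (13 of 26) and fatty acid synthesis (8 of 20), and the red bar of lymphocyte markers (5 of 8) includes Igkc and Jchain, which passed the filter through DKO libraries alone.

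The lists of central metabolism held few calls, most of them lower. Over all tested genes 3.87% were called lower and 3.01% higher, and no list's share was tested against these. Of 24 glycolysis and hypoxia genes, Pfkl, Pgk1 and Gpi1 were lower and Slc2a3 was higher in DKO cells, and the list's median was -0.05. Pfkl, the liver-type phosphofructokinase, had 1676, 1867 and 2191 normalized counts in DKO cells, against 2723, 3205 and 3879.7 in LXR-positive cells (log2 difference -0.77 ± 0.15 (SE), adjusted p = 0.015). Pgk1, phosphoglycerate kinase, had 5686, 5803 and 7105, against 11109, 8224 and 10123 (-0.66 ± 0.16, adjusted p = 0.033), and the glucose transporter Slc2a3 had 107, 95.2 and 99.2, against 61.3, 58.4 and 60.7 (0.73 ± 0.19, adjusted p = 0.041). Of 20 genes of the tricarboxylic acid cycle, Idh1 (3459, 4125 and 4705, against 7669, 5791 and 7602; -0.78 ± 0.15, adjusted p = 0.015), an NADPH-producing isocitrate dehydrogenase, and Mdh2 (-0.56 ± 0.14, adjusted p = 0.039), malate dehydrogenase, were lower. Without DKO library 1 or 2 the calls of Pfkl, Pgk1, Slc2a3, Idh1 and Mdh2 ended. Those of Pgk1, Slc2a3 and Mdh2 also ended without DKO library 3 or LXR-positive library 1 or 3, and those of Slc2a3 and Mdh2 without LXR-positive library 2, with an adjusted p of up to 0.123.

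Of 21 targets of NRF2, the regulator of antioxidant genes, Cat and Tkt were lower. Cat, catalase, which breaks down hydrogen peroxide, had 1585, 2019 and 1824 normalized counts in DKO cells, against 3375, 2901 and 4051 in LXR-positive cells (log2 difference -0.92 ± 0.15 (SE), adjusted p = 0.0077), and with vehicle 2041, 2033 and 2610.4, against 5813, 5245 and 6139, so that it was lower in both states. Tkt, transketolase, was at -0.54 ± 0.15, adjusted p = 0.047. Of 26 lysosome genes, Lamp2 (-0.36 ± 0.10, adjusted p = 0.046) and Atp6v1a (-0.37 ± 0.10, adjusted p = 0.047) were lower. Of 21 unfolded protein genes, Pdia6 (-0.56 ± 0.14, adjusted p = 0.041) and Hsp90b1 (-0.45 ± 0.12, adjusted p = 0.047) were lower and Atf3 was higher. Of 14 iron genes, Slc11a2 (-0.55 ± 0.13, adjusted p = 0.03) was lower. Cat kept its call under all 25 alternatives, whereas each of the other calls given here ended in at least 8 of 25. Over all tested genes 6.87% were called, and no list's share was tested against that. Gpi1, Hsp90b1 and Slc11a2 share 402 to 741 exon bases with the opposite strand. Of 30 cell cycle genes 1, Cdt1 (-0.92 ± 0.24, adjusted p = 0.045), was called, and the list's median was 0.12 under KLA, against 0.89 with vehicle.

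The rule for named genes left out pseudogenes and predicted models, which held the widest differences in both directions. Of the lower genes named for size alone, Plxdc2, a transmembrane receptor, had 33.4, 51.8 and 33.1 normalized counts in DKO cells, against 303, 196 and 255 in LXR-positive cells, 6.28-fold lower on the fitted scale (log2 difference -2.65 ± 0.21 (SE), adjusted p = 0.00011). With vehicle it had 188, 264 and 208, against 1968, 1705 and 2047, and the groups did not overlap with any of the 4 treatments. Cd81, a tetraspanin with 104 exon bases shared with the opposite strand, had 189, 192 and 233, against 791, 369.9 and 823 (-1.60 ± 0.30, adjusted p = 0.014). Srp54b, a copy of the signal recognition particle subunit with close relatives in the genome, had 233, 434 and 311, against 668, 1102 and 1281 (-1.63 ± 0.33, adjusted p = 0.018). The mitochondrial asparagine tRNA gene mt-Tn had 91.0, 82.3 and 89.4, against 159, 519.6 and 289.9 (-1.71 ± 0.34, adjusted p = 0.018).

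Of the higher genes named for size, Mid1, a ubiquitin ligase on the X chromosome, had 565, 721 and 541 normalized counts in DKO cells, against 120.0, 130.3 and 118 in LXR-positive cells, 4.89-fold apart on the fitted scale (log2 difference 2.29 ± 0.17 (SE), adjusted p = 8.1e-05). Its groups did not overlap with any of the 4 treatments, and it shares 1095 exon bases with the opposite strand. Csprs had 112, 185 and 120.0, against 6.52, 22.5 and 1.52 (4.16 ± 0.81, adjusted p = 0.016), and Tulp1, a tubby-like protein, had 225, 71.2 and 96.7, against 27.4, 12.0 and 6.07 (3.08 ± 0.53, adjusted p = 0.011). Plxnb1, a semaphorin receptor, had 98.9, 155 and 121, against 39.1, 32.9 and 9.11 (2.37 ± 0.50, adjusted p = 0.021). Nrep (3.13 ± 0.69, adjusted p = 0.024) and Kif4, a chromosome-associated kinesin (2.17 ± 0.58, adjusted p = 0.046), were the other protein-coding genes of the top 12 outside the immunoglobulins, and the call of Kif4, which shares 832 exon bases with the opposite strand, ended in 12 of 25 alternatives. The mitochondrial glycine tRNA gene mt-Tg was among the 12 too, with 275, 319.9 and 366 in DKO cells, against 193, 27.0 and 54.6 in LXR-positive cells (2.25 ± 0.60, adjusted p = 0.045), opposite in direction to mt-Tn, and its call ended in 12 of 24.

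Among named genes, those of antibodies gave the widest gaps. Ighg1, the constant region of IgG1, had 99.6, 104 and 102 normalized counts in DKO cells, against 0, 0 and 0 in LXR-positive cells, which is at least 23.6-fold higher against a floor of 3 reads in each LXR-positive library. Ighg2b, the constant region of IgG2b, had 179, 313 and 198 in DKO cells, against 1 read in LXR-positive library 2 and 0 in the other LXR-positive libraries. Igkc, the kappa light chain constant region, had 431, 423 and 183, against 0, 10.5 and 3.04 (6.49 ± 0.94, adjusted p = 0.0055), and Jchain, which joins IgM and IgA units, had 27.7, 64.7 and 26.3 in DKO cells, against 1 read each in LXR-positive libraries 2 and 3 and 0 in library 1 (4.33 ± 0.66, adjusted p = 0.0063). None of these 4 overlapped between genotypes with vehicle, GW3965 or AcLDL either. Ighg1, Ighg2b, Igkc and Jchain passed the filter on low values through the DKO libraries alone, so no count over immunoglobulin genes is given. Ighm, the IgM heavy chain, had 689, 459.6 and 149, against 41.7, 27.0 and 111 (2.83 ± 0.52, adjusted p = 0.014), while with vehicle it had 1499, 1319.9 and 1139.7, against 1059, 1055 and 1205. Reads can be hard to divide among immunoglobulin genes.

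Where markers of other cells were called by limma, they were higher in DKO cells. Of all tested genes 3.01% were called higher and 3.87% lower, and no marker list's share was tested against these. Of 19 lymphocyte markers 8 passed the filter, Igkc and Jchain through the DKO libraries alone. Cd3d, Cd3g and Ighm were higher, as were Igkc and Jchain, and the other 3 did not pass the test. The calls of Igkc and Jchain add no support, given how these genes passed the filter. The summed level, with Igkc and Jchain included, was 528 to 1328 normalized counts in DKO cells and 136 to 241 in LXR-positive cells. Of 19 tested neutrophil and precursor markers 4 were higher, S100a9, Ngp, Mpo and Cxcr2, with a median of 0.90 and summed levels of 11581 to 15974 in DKO cells and 10478 to 11786 in LXR-positive cells. All 4 calls ended without DKO library 2 and with only the 6 KLA libraries, and those of S100a9 and Cxcr2 also without DKO library 3 or LXR-positive library 3. Ngp, a granule protein of immature neutrophils, had 408, 923 and 696, against 239, 172 and 273 (1.51 ± 0.27, adjusted p = 0.013). Mpo, myeloperoxidase, had 20.6, 31.4 and 25.7, against 6.52, 12.0 and 7.59 (1.49 ± 0.27, adjusted p = 0.013). Among 19 stromal markers Vcam1 was higher (1.06 ± 0.27, adjusted p = 0.037), and the median was 1.35, with summed levels of 978 to 4832 in DKO cells and 662 to 2373 in LXR-positive cells. Of 7 tested erythroid and megakaryocyte markers 4 were above 0 and 3 below, and 1, Itga2b, was called, as higher. The summed level of that list was 2326 to 3037 in DKO cells and 2743 to 3678 in LXR-positive cells. Hbb-bt and Car1 were at 0 in all 6 libraries. Of 6 tested mast cell, basophil and eosinophil markers 4 were above 0 and 2 below, and 1, Prg2, was called, as higher. Tpsb2 and Cma1 were at 0 in all 6 libraries. No dendritic cell or osteoclast marker was called by limma or edgeR, 1 dendritic cell marker was called by DESeq2, and 2 and 0 had an unadjusted p under 0.05. Of 14 alternative activation genes and 15 genes of the mitochondrial chromosome none was called by limma or edgeR, DESeq2 called 1 and 0, and 2 and 0 had an unadjusted p under 0.05. The part of other cells in any of the differences was not tested.

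Small structured RNAs held higher calls, whose number moved with the libraries and settings. Of 80 tested small nucleolar RNAs 32 were higher in DKO cells and none was lower, with a median of 1.83, and 14 of 27 small nuclear RNAs and 4 of 9 scaRNAs were higher. Of all tested genes 3.01% were called higher. The filter on low values could be met through the deeper DKO libraries alone, and how many of these RNAs passed that way was not counted. Their counts and median therefore add no support. The small nuclear RNAs held 7 higher calls with edgeR, 8 with DESeq2, 7 with any 1 vehicle library left out and 0 without DKO KLA library 2 or with only the 6 KLA libraries. The scaRNAs held 0 without DKO KLA library 2 or 3 or LXR-positive KLA library 2. The protein-coding genes divided into 296 higher and 588 lower of 12983, but into 322 and 270 with thinned reads and 297 and 322 with quantile scaling. Rmrp, the RNA of the RNase MRP complex, which shares 124 exon bases with the opposite strand, had 2124, 2880.3 and 3154 normalized counts in DKO cells, against 1044, 232 and 785 in LXR-positive cells (log2 difference 2.22 ± 0.45 (SE), adjusted p = 0.018). AY036118 and Lars2, named after their values were seen, followed: AY036118, whose 923 exon bases all lie opposite another gene, took 0.722 to 1.41% of reads in DKO cells and 0.0190 to 0.155% in LXR-positive cells, and Lars2, a mitochondrial leucyl-tRNA synthetase, had 14408, 12623 and 10040.4, against 3436, 1779 and 3966 (2.08 ± 0.43, adjusted p = 0.019). In DKO cells with KLA both AY036118 and Lars2 fell from library 1 to library 3. Whether the reads given to Lars2 come from its own transcript was not tested. Small nuclear and nucleolar RNAs together took 0.0538 to 0.0788% of reads in DKO cells and 0.0262 to 0.0372% in LXR-positive cells. The part of library composition in the other differences was not tested. Without DKO library 2, 3 small nucleolar RNAs were higher. Restricting size factors and tests to protein-coding genes, chosen after seeing the data, left 854 called, 368 higher and 486 lower, and 13 cholesterol genes lower.

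Most called differences had the same sign with vehicle. Of the 480 higher genes 462 were also above 0 with vehicle, and of the 617 lower genes 571 were below 0. Groups failed to overlap, in the same direction, with all 4 treatments in 136 of the 480 higher and 284 of the 617 lower genes. The calls came from the KLA libraries, 1 of these treatments, so the choice of genes raised these counts. Of all tested genes, 2066 did not overlap under KLA with DKO cells higher. In 221 of these (1.38% of all tested) the groups did not overlap with any of the 4 treatments. For lower genes the counts were 2388 and 498 (3.12%). These treatments used cells of the same 6 mice. Close to the targeted loci the share of calls was near the background: within 10 Mb of Nr1h2 on chromosome 7, 14 of 168 tested genes were called (8.33%), and within 10 Mb of Nr1h3 on chromosome 2, 7 of 126 (5.56%). Api5, an inhibitor of apoptosis near Nr1h3, had 1446, 1227 and 1396 normalized counts in DKO cells, against 2086, 2272 and 2398 in LXR-positive cells (-0.73 ± 0.11, adjusted p = 0.0057), and Bax, a promoter of apoptosis near Nr1h2, had 539, 649 and 698, against 479, 329 and 328 (0.75 ± 0.17, adjusted p = 0.027). Fcgrt (chr7:45092990-45103851), the neonatal Fc receptor, which recycles IgG, lies near Nr1h2 and had 468, 459 and 649 in DKO cells, against 232, 222 and 247 in LXR-positive cells (1.15 ± 0.18, adjusted p = 0.0071). The tetraspanin Tspan18 (chr2:93201760-93334505) lies near Nr1h3 and had 108, 90.6 and 107 in DKO cells, against 33.9, 30.0 and 24.3 in LXR-positive cells (1.77 ± 0.20, adjusted p = 0.0014). The call of Bax ended without DKO KLA library 2 or 3 or LXR-positive KLA library 2 or 3, with an adjusted p of up to 0.0968.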

How the data were processed

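Macrophage cultures from 6 mice gave 24 libraries, of which the 12 with KLA or vehicle were fitted. RNA (500 ng) entered a stranded total RNA kit and was sequenced in single 50 bp reads, per the labels' protocols and the design text. The tools kallisto and DESeq2 and the build GRCm38 are named in the submitters' processing notes. The sources used here name no versions, annotation or strand setting.

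Values were deposited by the authors as normalized counts, a signal equal to whole reads over a size factor for each library, checked on the values, where 100% of values in every library came out whole within 0.01 read. No count test was therefore the main test. limma-trend (limma 3.58.1, R 4.3.3) was fitted to log2(value + 1) with 4 group means and 1 spread, for genes with at least 10 normalized counts in at least 3 of the 12 libraries, and p-values were adjusted by Benjamini-Hochberg over all genes tested. Log2 differences on this scale understate those of low genes. The spread is that between 3 mice of a genotype, and an exact permutation test on 3 against 3 cannot go below p = 0.1. edgeR 4.0.16 and DESeq2 1.42.0 on the recovered reads, other pseudocounts, filters, scalings, thinned reads, other sets of libraries, blocks and leaving out each library were alternatives, and protein-coding genes alone were added after seeing the data. edgeR's quasi-likelihood test on recovered reads called 999 genes under KLA.

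On simulated counts for the KLA comparison over 15957 genes, 49% of changes of log2 1 and 79% of log2 2 were recovered, with 10 false calls (7.25% of calls).

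Some genes are not reported here. Members, lists and tests were chosen with earlier results of these data known. Named genes were Nr1h2 and Nr1h3; the 12 largest called differences in each direction whose groups did not overlap and whose higher group averaged at least 100; per list, up to 4 called genes by smallest p, or 2 uncalled; and up to 8 called within 10 Mb of the targeted genes. Genes outside this rule (Abca1, Apoe, Hmgcs1, Fdft1, Scd2, Scd1, Srebf1, Srebf2, Mrps36-ps1, Tnf, Il1b, Il6, AY036118, Lars2 and list members given by 1 difference only) were added after their values were seen. Gene spans are those of GENCODE M21, which holds 46648 of 47372 identifiers. Same-numbered KLA libraries of the 2 genotypes deviated from their group means with r = -0.17, -0.01 and 0.23 over 8995 genes.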

Additional observations from a re-analysis of the deposited data

Results flagged for a closer look

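For 11 genes the genotype difference under KLA differed from that with vehicle in limma's test of the difference between the differences (DKO minus LXR-positive under KLA, minus the same with vehicle; log2 ± SE; Benjamini-Hochberg adjusted p over 15957 genes). In every one of the 11 the difference lay below 0 under KLA and above 0 with vehicle.

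Of the cholesterol genes, Cyp51, Idi1 and Fdps kept this call under all 24 alternatives. Cyp51 stood at -2.80 ± 0.33, adjusted p = 0.0089 (-1.60 under KLA, 1.20 with vehicle), Idi1 at -2.58 ± 0.31, adjusted p = 0.0089 (-1.54 and 1.03), Fdps at -2.32 ± 0.27, adjusted p = 0.0089 (-1.65 and 0.67). Fdft1, at -2.05 ± 0.31, adjusted p = 0.04 (-1.25 and 0.80), lost the call in 12 of the 24, and Hmgcs1, at -1.71 ± 0.26, adjusted p = 0.047 (-1.16 and 0.54), lost it in 14.

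Of the fatty acid genes, Scd2 stood at -4.39 ± 0.44, adjusted p = 0.003 (-1.49 under KLA, 2.91 with vehicle) and kept its call under all 24. Fads2 stood at -4.88 ± 0.76, adjusted p = 0.047 (-2.91 and 1.97) and lost it in 13, and Acaca at -1.35 ± 0.19, adjusted p = 0.028 (-0.78 and 0.57) lost it in 11.

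The exporter Abcg1 stood at -1.90 ± 0.26, adjusted p = 0.022 (-1.30 and 0.60), and Utp14b, which lies within Acsl3, at -2.04 ± 0.26, adjusted p = 0.014 (-1.72 and 0.32). The pseudogene Mrps36-ps1 stood at -5.32 ± 0.52, adjusted p = 0.003 (-1.21 and 4.10). The pseudogene lost this call in 1 of 23 alternatives, limma's fit with all 24 libraries (adjusted p = 0.48). It had 16.4, 25.0 and 12.9 normalized counts in DKO cells, against 31.3, 50.9 and 45.5 in LXR-positive cells with KLA, and 21.3, 14.2 and 14.0, against 0, 0 and 0, with vehicle. Because the LXR-positive vehicle libraries are all at 0, its fitted values depend on the pseudocount and bound no fold change.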

How the results depend on the processing

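The 1097 calls under KLA became 731 with no filter on low values, 1803 with DESeq2, 276 with only the 6 KLA libraries and 1852 with all 24 libraries, and ran from 128 to 1186 when 1 library was left out. Of these, 258 of the 276 and 126 of the 128 were among the 1097. The 42 calls with vehicle became 316 with DESeq2, 19 with only its 6 libraries, 73 with all 24 libraries and 18 with protein-coding genes only, and ran from 24 to 93 with 1 library left out. The 11 calls on the difference between differences became 49 with DESeq2, 31 with all 24 libraries and 19 with the mouse as a random block, and ran from 5 to 30 with 1 library left out. The share of higher calls, 43.8% at full depth, was 61.5% with thinned reads and 54.0% with only the 6 KLA libraries.

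Whether same-numbered libraries of the 2 genotypes share anything beyond the number cannot be settled by the 3 correlations given with the processing. Over KLA library pairs of any numbers r ran from -0.19 to 0.23. With that number as a block, 832 genes were called under KLA, 44 with vehicle and 6 on the difference between differences. Within a genotype the number marks the mouse, and with the mouse as a random block 1069 genes were called under KLA.

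Of the 87 named called genes, TMM scaling and DESeq2 kept 87, quantile scaling 69, thinned reads 71 and only the 6 KLA libraries 37, and none changed sign. Tnf, which was not called, turned to -0.19 without DKO library 1 and -0.06 without LXR-positive library 2, against 0.13 with all, and ran from -0.19 to 0.36 with 1 library left out. Elsewhere the cause of lost calls was not tested. Fewer samples enter the fit where libraries are left out. LXR-positive libraries with KLA held fewer reads than DKO libraries, which limits genes low in them.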
